A study of Mus musculus with 8 samples.

Results

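The interferon-induced antiviral genes Isg15, Ifit1, Ifit3, Oasl2, Ifi27l2a, Irf7, Usp18, Rsad2 and Bst2 were examined in the olfactory bulb of young mice reared in a plain or an enriched cage and then kept in clean air or diesel exhaust. The members were taken by gene name from the noncontrol probes of the arrays, which gave 9 of 34797 gene names and 10 of 55681 probes, with 2 probes for Isg15. They were chosen by their log2 differences between pools on these same arrays, as genes of 1 known programme that stood higher in exposed pools, so those differences between pools are given as a description and carry no test.

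The RNA came from male C57BL/6J mice and was labelled with Cy3 for 1-colour Agilent arrays. Dams entered their cages at gestational day 14, the pups stayed under that housing past weaning at postnatal day 27, and all mice then spent 28 days (postnatal days 28 to 55) in an inhalation chamber, with the bulbs taken at 56 days of age. C-C mice had a standard cage and clean air, and C-DE mice had a standard cage and diesel exhaust at 90 µg/m3 for 8 hours a day. EE-C mice had environmental enrichment (a larger cage with a wheel, shelter and objects that were changed) and clean air, and EE-DE mice had enrichment and the same exhaust. For each group, RNA of several mice was mixed into 1 pool, and each of the 4 pools was put on 2 arrays. By the methods of the study the pooled RNA of each group was split in 2 as a technical repeat and then labelled, so both arrays of a pool measured the same RNA, which the files cannot show. The spread between mice is therefore unknown, and each difference below compares 1 pool with another. All 8 arrays lay on 1 slide with 1 scan time. The standard-cage pools filled slide column 1 and the enriched pools slide column 2, so rearing and slide column cannot be told apart. The clean-air pools filled slide rows 1 and 2 and the exposed pools rows 3 and 4, so exhaust and slide row cannot be told apart either.

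Type I interferons are secreted by cells that sense viral nucleic acid. They bind the receptor Ifnar1/Ifnar2, which activates the kinases Jak1 and Tyk2, and a complex with Stat2 and Irf9 then binds a DNA motif, the interferon-stimulated response element, in front of target genes. The targets block viral entry, translation and budding. In the brain, glia and vascular cells are the best-known responders, and basal signalling keeps many of these genes at a low level without infection.

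The sequence that these genes are known to share was looked for in the RefSeq promoter windows, 250 bases before to 50 bases after each start site (build GRCm38.p6). Windows were at hand for 7 of the 9 members, all but Usp18 and Ifi27l2a. The core of the response element was searched as GAAA, any 2 bases and GAAA again, on both strands, with overlapping matches counted separately. It occurred in 5 of the 7 members' windows, against 1079 of 27025 genes with a window (3.99%). The members were picked as known targets of interferon, so a high share follows from that choice and is no test. The stretches below hold every match found in the members' windows and are shown for the place of the motif. Each runs from base −190 to base −41 of the start site, 5′ to 3′ on the gene's strand, with the matches in capitals.
Isg15 (chr4:156200859-156201008, minus strand): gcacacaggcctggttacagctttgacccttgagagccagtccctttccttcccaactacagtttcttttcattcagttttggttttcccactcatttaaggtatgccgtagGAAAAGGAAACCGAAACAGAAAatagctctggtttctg
Ifit1 (chr19:34640699-34640848, plus strand): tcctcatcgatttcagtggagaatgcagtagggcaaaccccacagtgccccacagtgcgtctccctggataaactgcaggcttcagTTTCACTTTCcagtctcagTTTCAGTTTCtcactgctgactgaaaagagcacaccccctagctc
Ifit3 (chr19:34583339-34583488, plus strand): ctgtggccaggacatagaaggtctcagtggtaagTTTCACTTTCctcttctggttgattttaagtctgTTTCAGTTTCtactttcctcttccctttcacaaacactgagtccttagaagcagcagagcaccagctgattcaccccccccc
Rsad2 (chr12:26456493-26456642, minus strand): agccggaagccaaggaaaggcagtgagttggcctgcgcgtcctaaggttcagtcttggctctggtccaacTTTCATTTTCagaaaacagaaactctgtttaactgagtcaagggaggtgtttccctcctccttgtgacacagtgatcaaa
Bst2 (chr8:71537513-71537662, minus strand): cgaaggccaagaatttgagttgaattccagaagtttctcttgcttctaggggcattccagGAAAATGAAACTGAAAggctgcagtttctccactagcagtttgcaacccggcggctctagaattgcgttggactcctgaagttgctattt

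**Figure D1:**
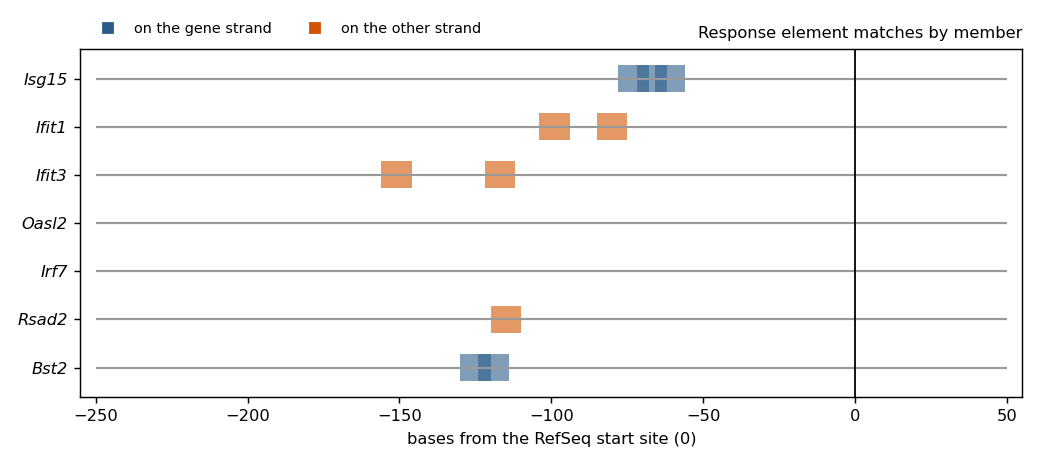
Matches to the interferon-stimulated response element along the promoter windows of the 7 members that have one. The x axis gives bases from the RefSeq start site, blue boxes are matches on the gene's strand, orange boxes matches on the other strand, and darker parts are overlaps. All 10 matches lie before the start site, between bases −156 and −57, and Oasl2 and Irf7 have none in the window.

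Isg15 had 3 overlapping matches between bases −78 and −57, and Bst2 had 2 overlapping ones between −130 and −115. Ifit1 and Ifit3 each had 2 separate matches on the other strand, Ifit1 at −104 and −85 and Ifit3 at −156 and −122, counted to the first base. Rsad2 had 1 match, at −120. The windows of Oasl2 and Irf7 held no such run of letters. Of the other interferon-stimulated genes listed for the pathway, 24 of 55 with a window held a match (43.6%). The interferon ligand genes, which were not listed as targets, held one in 10 of 16 windows (62.5%). A match is only a run of letters and was not tested as a site of binding.

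All 10 member probes were well above background on all 8 arrays, none was saturated, and none carried a flag for an irregular spot. The spot of Bst2 had a flagged local background on 2 arrays. Levels are given on the log2 scale relative to the 75th percentile of each array, so that 0 is that percentile. A level belongs to its probe and cannot be set against that of another gene, and in whole tissue more cells of a type and more RNA per cell cannot be told apart. The bulb itself was seen in all pools, as each of the 16 listed bulb neuron markers, among them Th, Gad1, Cdhr1 and Meis2, was measured. Array 1 of EE-DE had 56.7% of its spots well above background, against 68.0% to 70.6% on the others, with a median background of 29 against 21 to 24.

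Isg15 (NM_015783), a small ubiquitin-like protein that is attached to other proteins and also secreted, was read by 2 probes on chromosome 4 of mm9. Probe A_55_P2103698 lies at chr4:155573649-155573708, and for probe A_66_P128537 the array's annotation gives chr4:155573533-155573552, which is 20 of its 60 bases. The latter probe is printed because it gave the largest difference of any member in C-DE/C-C.
Isg15 probe A_66_P128537: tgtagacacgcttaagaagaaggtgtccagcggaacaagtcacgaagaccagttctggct
The mean of both probes was −0.58 and −0.45 on the C-C arrays, −0.31 and 0.47 on the C-DE arrays, −0.08 and −0.19 on the EE-C arrays and 0.15 and −0.18 on the EE-DE arrays. The probes were unlike in brightness, with intensities of 1674 to 3182 for A_55_P2103698 and 114 to 264 for A_66_P128537. Their mean is therefore the level of neither. By that mean both C-C arrays were below the other 6, and array 2 of C-DE was the highest of all. Probe A_66_P128537 was 0.69 higher in C-DE than in C-C and probe A_55_P2103698 0.49 higher. In EE-DE/C-C they gave 0.48 and 0.52, so of these comparisons the probes differed more in the standard-cage one.

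Usp18 (NM_011909, chr6:121220874-121220933) is the protease that removes Isg15 from proteins and dampens signalling at the interferon receptor. Its levels were −2.07 and −1.96 in C-C, −1.85 and −1.40 in C-DE, −1.58 and −1.80 in EE-C and −1.41 and −1.94 in EE-DE. The C-C arrays were again the lowest, and array 2 of C-DE and array 1 of EE-DE, at −1.40 and −1.41, were the highest. The other EE-DE array lay close to the C-C arrays.

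Irf7 (NM_016850), the factor that drives the late wave of interferon gene transcription, had a weak signal, with intensities of 37.2 to 70.6. Its probe is listed at chr7:148450664-148451014, an interval of 351 bases that is longer than the probe. The probe is printed for that reason.
Irf7 probe A_51_P421876: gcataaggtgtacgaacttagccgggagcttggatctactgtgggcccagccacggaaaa
The levels were −4.13 and −3.71 in C-C, −3.97 and −3.23 in C-DE, −3.76 and −3.76 in EE-C and −3.35 and −3.98 in EE-DE. Every pool except EE-C spread by more than 0.4 between its own arrays, and no difference between pools kept its groups apart.

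Ifit1 (NM_008331, chr19:34723796-34723855) and Ifit3 (NM_010501, chr19:34663105-34663164) encode proteins of tetratricopeptide repeats, of which Ifit1 binds viral RNA that lacks the host's cap methylation and Ifit3 is its partner. Ifit1 had levels of −1.93 and −1.93 in C-C, −2.09 and −1.37 in C-DE, −1.74 and −1.66 in EE-C and −1.23 and −1.70 in EE-DE. The C-DE arrays enclosed those of C-C, 1 below and 1 above. Ifit3 had levels of 0.58 and 0.66 in C-C, 0.91 and 1.45 in C-DE, 1.11 and 1.08 in EE-C and 1.57 and 1.19 in EE-DE. For Ifit3 both C-C arrays were below every other array. Ifit3b, a gene next to Ifit3 in the RefSeq annotation, is a close copy, and how much of its RNA binds the Ifit3 probe was not tested.

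Oasl2 (NM_011854, chr5:115362168-115362227), an oligoadenylate synthetase-like protein, had levels of −0.83 and −0.73 in C-C, −0.57 and −0.03 in C-DE, −0.46 and −0.46 in EE-C and 0.08 and −0.42 in EE-DE. Both C-C arrays were the lowest, and both EE-DE arrays were above both EE-C arrays. Rsad2 (viperin; NM_021384, chr12:27127859-27127918), an enzyme that makes a chain-terminating nucleotide, had levels of −2.62 and −2.62 in C-C, −2.40 and −2.06 in C-DE, −2.41 and −2.72 in EE-C and −2.28 and −2.80 in EE-DE. Both C-DE arrays were above C-C, whereas the arrays of both enriched pools lay on either side of it.

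Bst2 (tetherin; NM_198095, chr8:74058603-74058662) holds budding virus particles at the cell surface. Its levels were 0.18 and 0.02 in C-C, 0.23 and 0.37 in C-DE, 0.45 and 0.42 in EE-C and 0.67 and 0.38 in EE-DE. Each array of the other 3 pools was above both C-C arrays, and the enriched pools were above C-DE on every array. Ifi27l2a (NM_029803, chr12:104680394-104680453), a small hydrophobic protein of the Ifi27 family, had levels of 1.87 and 1.61 in C-C, 1.87 and 2.22 in C-DE, 1.89 and 2.12 in EE-C and 2.55 and 2.21 in EE-DE. Array 1 of EE-DE was the highest for Bst2 and for Ifi27l2a.

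**Figure D2:**
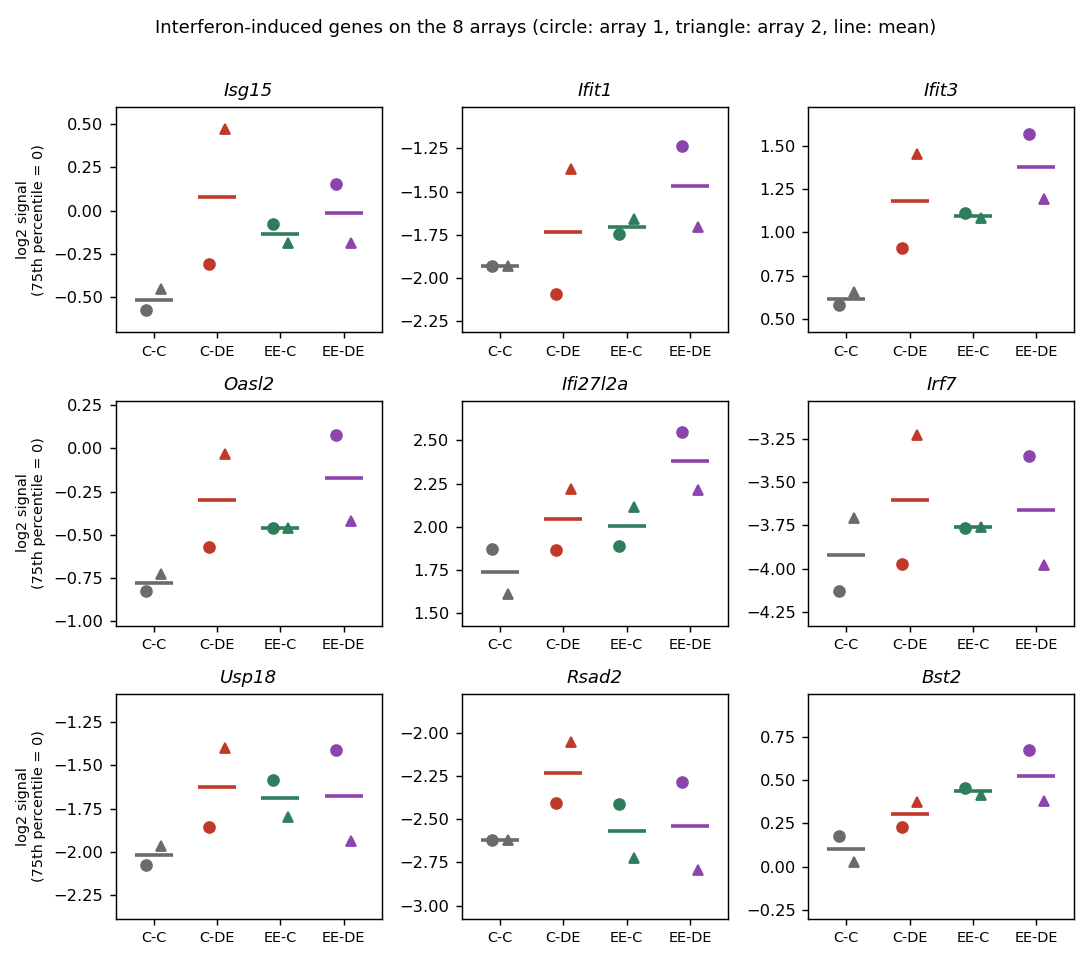
Level of each member on the 8 arrays. The y axes give log2 signal relative to the array's 75th percentile and span the same height, circles are array 1 and triangles array 2 of each pool, and lines are the means. In the C-DE pool the triangle is above the circle for all 9 genes, and in the EE-DE pool it is below for all 9.

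Diesel exhaust in mice of standard cages was addressed by C-DE/C-C. All 9 members were higher in the C-DE pool, against 47.2% of the 16484 genes measured, and their median log2 fold change was 0.39, or 1.31-fold, against −0.0059 for all genes. The median ran from 0.16 to 0.68 over the 4 pairings of a C-DE with a C-C array. Isg15 was 0.59 higher (1.51-fold, pairings from 0.14 to 1.05) and alone passed the 1.5-fold of the study, which 0.164% of genes passed upward. Ifit3 at 0.56, Oasl2 at 0.48, Usp18 and Rsad2 at 0.39 each and Bst2 at 0.20 also had both C-DE arrays above both C-C arrays, as did 18.2% of genes. The arrays of Ifi27l2a (0.30, pairings from −0.0012 to 0.61), Irf7 (0.32, −0.27 to 0.90) and Ifit1 (0.20, −0.16 to 0.56) overlapped. After normexp background correction Ifit3, at 0.60, passed 1.5-fold in place of Isg15, at 0.50. Irf7 was at 0.19 here under that correction, and at 0.15 in EE-DE/C-C and 0.07 in EE-C/C-C, where it was otherwise at 0.26 and 0.16. No member was 1.5-fold higher in all 4 pairings, as 0.00607% of genes were.

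The outcome leaned on array 2 of C-DE. Without it Isg15 differed by 0.20 and no member passed 1.5-fold, while 0.182% of genes did. Ifit1 and Irf7 were then lower than in C-C (−0.16 and −0.06), and the median was 0.17. Without array 1 of C-DE 5 members passed, against 0.358% of genes, and the median was 0.62. Leaving out C-C array 1 took Isg15 below the threshold, and leaving out C-C array 2 brought the count to 2, against 0.267% of genes.

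Exhaust after enriched rearing was addressed by EE-DE/EE-C. The members' median was 0.12, with pairings from −0.08 to 0.43, and all 9 were above 0 against 46.1% of genes. With the brightest probe of each gene the median was 0.20, the value of Isg15, which was otherwise at 0.12. None passed 1.5-fold upward, which 0.546% of genes did. Ifi27l2a at 0.38, Oasl2 at 0.29 and Ifit3 at 0.28 had both EE-DE arrays above both EE-C arrays, as did 14.4% of genes. Usp18 and Rsad2, which were 0.39 higher in the standard-cage comparison, were at 0.02 and 0.03 here. Without array 1 of EE-DE the median was −0.05, and 6 members, Isg15, Ifit1, Irf7, Usp18, Rsad2 and Bst2, were level with or below EE-C.

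The difference between the 2 exposure comparisons had a median of −0.22 over the members, with a range from −0.79 to 0.23 over the 16 combinations of array pairings. It was lowest for Isg15 at −0.48, and slightly above 0 for Ifit1 at 0.03 and Ifi27l2a at 0.08. For each of the 9 members the combinations ran from below 0 to above 0. With 1 pool per group this difference was not tested.

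Exposed, enriched mice against unexposed mice of standard cages, EE-DE/C-C, gave the highest median of the 5 comparisons when all arrays were used. It was 0.46 (1.38-fold, pairings from 0.23 to 0.70), all 9 were above 0 (48.3% of genes), and 3 of 9 passed 1.5-fold against 0.51% of genes: Ifit3 at 0.76 (1.70-fold), Ifi27l2a at 0.64 (1.56-fold) and Oasl2 at 0.61 (1.52-fold). In 7 members, all but Irf7 and Rsad2, both EE-DE arrays were above both C-C arrays, as in 22.6% of genes. Rsad2, at 0.08, was the member nearest to no difference. Without array 1 of EE-DE none of the 9 passed, while 0.491% of genes did. The median was then 0.28, below those of C-DE/C-C and EE-C/C-C, and Irf7 and Rsad2 were below C-C (−0.06 and −0.17). Without array 2 of EE-DE 6 passed, against 0.77% of genes, and the median was 0.67.

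Rearing was also compared without exhaust. In EE-C/C-C all 9 members were above 0 (53.1% of genes), none passed 1.5-fold (0.291% of genes), and the median was 0.31, or 1.24-fold, with a narrow range of 0.27 to 0.36 over the pairings. Both EE-C arrays were above both C-C arrays for 7 members, against 21.0% of genes. Ifit3 was 0.48 higher, Isg15 0.38, Bst2 and Usp18 0.33 each, Oasl2 0.31, Ifi27l2a 0.26 and Ifit1 0.23, and Irf7 and Rsad2, at 0.16 and 0.05, overlapped. For Bst2 and Ifit1 the unexposed enriched pool stood further above C-C (0.33 and 0.23) than C-DE did (0.20 and 0.20). All 3 comparisons against C-C share its arrays, so that low readings there enter each of them.

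Between the exposed pools, EE-DE/C-DE, the members went both ways. The median was 0.13, with pairings from −0.39 to 0.63, and 5 of 9 were above 0 against 50.2% of genes. Values ran from −0.31 for Rsad2 (−0.11 after normexp) to 0.34 for Ifi27l2a, none was at least 1.5-fold higher, which 0.655% of genes were, and only Bst2, at 0.22, had both EE-DE arrays above both C-DE arrays, as had 21.7% of genes.

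**Figure D3:**
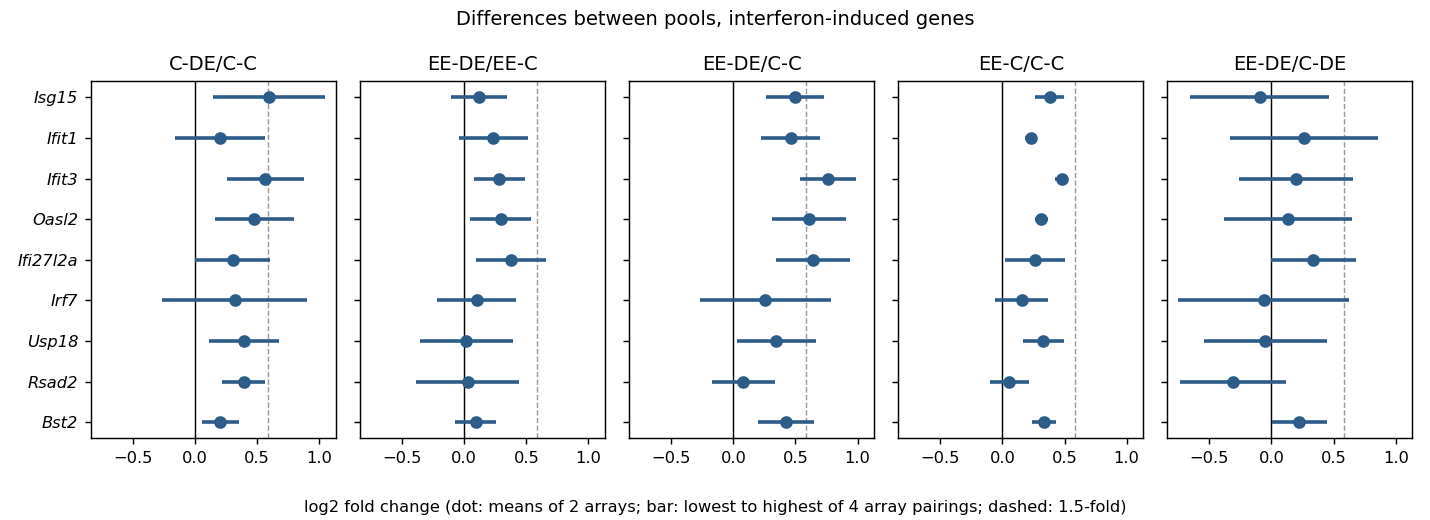
Log2 fold change of each member in the 5 comparisons of pools. Dots compare the means of 2 arrays, bars run from the lowest to the highest of the 4 pairings of arrays, and the dashed line marks 1.5-fold. In EE-C/C-C the bars run from 0.43 to 0.53 for Ifit3 and from 0.02 to 0.51 for Ifi27l2a, and in C-DE/C-C from 0.14 to 1.05 for Isg15 and from 0.05 to 0.35 for Bst2.

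The members also differed between arrays described as duplicates of the same pool. They were chosen on these same arrays, and a high array of an exposed pool raised the values behind that choice. The differences between duplicates, and the shares of all genes beside them, are therefore a description and no test. In C-DE, array 2 was above array 1 for all 9 members, where 49.1% of genes were higher on array 2. The median was 0.54 (1.45-fold), and the differences ran from 0.15 for Bst2 to 0.78 for Isg15. Isg15, Irf7 at 0.75 and Ifit1 at 0.72 differed by at least 1.5-fold, as 0.497% of genes did in that direction. This is larger than the members' median between the C-DE and C-C pools, 0.39.

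In EE-DE the order of the arrays was opposite, with array 1 above array 2 for all 9 members, against 51.5% of genes. Array 1 of EE-DE is also the array with the fewest spots well above background (56.7%) and the highest median background (29), and the part of this in the members' difference was not tested. The log2 difference of array 2 from array 1 had a median of −0.47 and ran from −0.63 for Irf7 to −0.30 for Bst2. Irf7 differed by at least 1.5-fold, as did 0.595% of genes. In the unexposed pools the members had no common direction between duplicates: 6 of 9 were higher on array 2 of C-C (49.9% of genes), with a median of 0.08, and 4 of 9 on array 2 of EE-C (45.2% of genes), with a median of −0.03.

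The spots around the member probes did not follow the same course. Within 263 to 338 neighbouring spots of each probe, the median duplicate difference lay between −0.03 and 0.02 in the exposed pools and between −0.14 and 0.02 over all pools. Both Isg15 probes, which lie on different parts of the array, moved together between the C-DE arrays, by 0.69 and 0.87, and between the EE-DE arrays, by −0.41 and −0.27. The cause of the difference between duplicates was not tested.

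**Figure D4:**
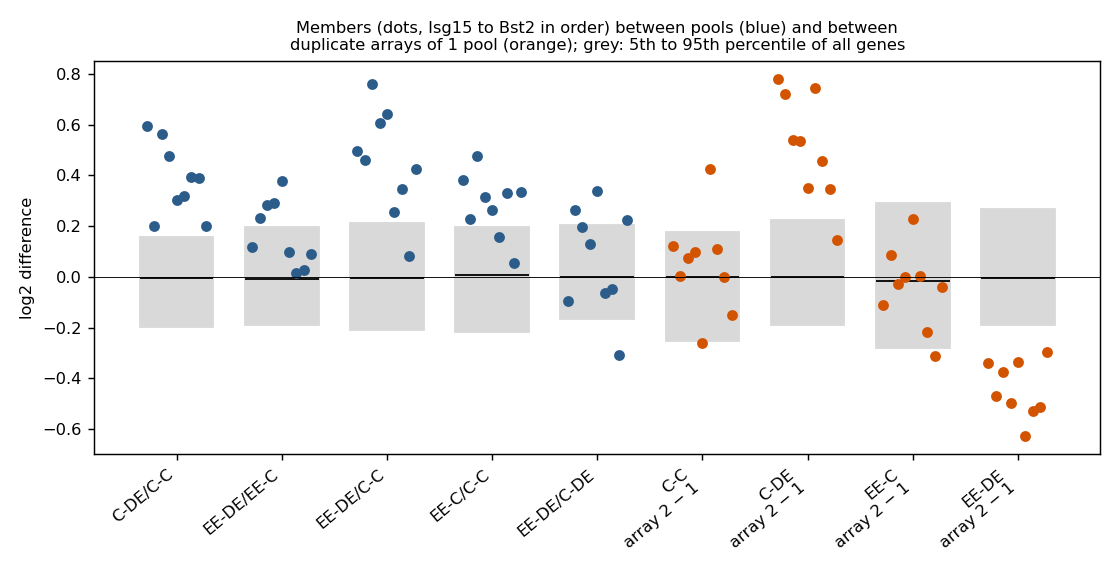
Log2 differences of the 9 members between pools (blue) and between the duplicate arrays of each pool (orange), with grey boxes from the 5th to the 95th percentile of all 16484 genes and black lines at their medians. Dots run from Isg15 to Bst2 in the order of the plot of fold changes. In the C-DE duplicates 8 members lie above the grey box, in the EE-DE duplicates all 9 lie below it, and in C-DE/C-C all 9 lie above it. The members were chosen on these arrays, so their place against the boxes is no test.

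With each gene centred on its mean, the members averaged −0.30 and −0.26 on the C-C arrays, −0.15 and 0.36 on C-DE, 0.02 and −0.02 on EE-C and 0.39 and −0.05 on EE-DE. Array 1 of EE-DE was the highest array for 5 members and array 2 of C-DE for the other 4. The lowest reading came from a C-C array for 7 members, from C-DE array 1 for Ifit1 and from EE-DE array 2 for Rsad2. Read from the lower exposed array of each pool alone, a choice made after these values were seen, the median of C-DE/C-C was 0.17 and that of EE-DE/EE-C −0.05.

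The members varied together over the arrays. The 36 pairs of members had Pearson's r from 0.32 to 0.98 over the 8 arrays, with a median of 0.83. Against the mean of the other members, Oasl2 was the closest with 0.99 and Rsad2 the least close with 0.65. The 8 arrays are 4 pools measured in duplicate and share 1 slide, and the genes were chosen for moving alike, so these values describe the set only.

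Of 1434 genes outside the set whose levels spanned at least 1.5-fold over the arrays, the 10 most like the members' mean were Phf11 (r = 0.97), Gm9706, Rtp4 and Ifi44 (0.96 each), Ccl12 (0.95), Cxcl10 and Oasl1 (0.94 each), Gbp3 (0.93), Oas1a (0.91) and Trim30d (0.90). Of these, 7 stand in the lists of the interferon pathway, which made up 1.60% of the candidates. Members and lists were both chosen with earlier results of these data known, so this share is a description only. Ccl12 is a chemokine, Trim30d belongs to the tripartite motif family and Gm9706 is annotated as a pseudogene. Promoter windows were at hand for 7 of the 10, and those of Cxcl10, Gbp3, Oas1a and Trim30d held a match to the searched core. Ccl12 went from −2.32 on array 1 to −1.42 on array 2 of C-DE and from −1.62 to −2.04 in EE-DE, the same order as the members.

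The rest of the pathway was taken from lists of 127 genes, of which 117 were on the array and 98 measured well above background throughout. Of these 98, 71 were above 0 in C-DE/C-C (47.2% of all genes), with a median of 0.07. There 1 passed 1.5-fold upward (0.164% of all genes) and none downward. In EE-DE/EE-C 69 were above 0 (median 0.04), against 46.1% of all genes, and in EE-DE/C-C 81 (median 0.10), against 48.3%. In EE-C/C-C 70 were above 0 (median 0.07), against 53.1%, and in EE-DE/C-DE 62 (median 0.03), against 50.2%. Most of the 71 in C-DE/C-C lay in the 61 other interferon-stimulated genes, of which 52 were above 0, with a median of 0.12.

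The upstream steps of the pathway were read as well. Of 15 interferon ligand genes on the array, 5 were measured, Ifna1, Ifna12, Ifna14, Ifnab and Il28b, and the probes of Ifnb1, Ifna4 and Ifne were not well above background on any array. For those measured, the C-DE/C-C median was 0.0078, with values from −0.18 to 0.35 (Ifnab). In EE-DE/EE-C it was 0.24, with values from −0.05 to 0.32 (Ifna1), and none passed 1.5-fold. The alpha interferon genes are close copies of one another, so a probe's gene is uncertain there. The 10 genes of the receptors and of JAK-STAT signalling had values from −0.08 to 0.10 in C-DE/C-C, with a median of 0.02. In that comparison Ifnar1 was at 0.03, Ifnar2 at 0.07, Stat2 at 0.01 and Irf9 at 0.10.

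The enzymes that attach Isg15 to proteins were read beside it. Uba7, the activating enzyme, was at 0.02 in C-DE/C-C, Ube2l6, the conjugating enzyme, at 0.11, and Herc6, the ligase, at −0.02. Herc6 reached 0.30 in EE-DE/C-C, against 0.05 for Uba7 and 0.12 for Ube2l6. None of these 3 passed 1.5-fold in any comparison, nor did the 15 sensors and adaptors or the 4 negative regulators measured.

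Outside the set, Cxcl10 and Oas1c were the pathway genes past 1.5-fold in any comparison. Cxcl10, a chemokine that draws T cells, had levels of −1.85 and −2.01 in C-C, −1.53 and −0.84 in C-DE, −1.55 and −1.49 in EE-C and −1.08 and −1.59 in EE-DE. It was 0.74 higher in C-DE/C-C and 0.59 higher in EE-DE/C-C, with the same high array in each exposed pool as the members. Oas1c, a synthetase of the Oas1 cluster, was 1.25 higher in EE-C/C-C and was at −1.12 in EE-DE/EE-C, both through 1 array: EE-C array 1 was at −0.17 and the other 7 between −2.66 and −2.37.

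The duplicates of the exposed pools differed along the pathway too. In C-DE 77 of 98 genes were higher on array 2, against 49.1% of all genes. There Ifi44, Oasl1, Cxcl10 and Phf11 were higher by at least 1.5-fold, as 0.497% of all genes were, with Ifi44 at 1.02. In EE-DE 16 of 98 were higher on array 2, while 51.5% of all genes were higher on array 1. On array 2 of EE-DE Ifi44, Oas2, Parp12, Gbp9 and Phf11 were at least 1.5-fold lower, as 0.595% of all genes were. The receptor and JAK-STAT genes averaged between −0.04 and 0.05 on every array after centring.

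Markers of cell types were set beside the members. The centred means of the bulb neuron (16 of 16 measured), microglia and macrophage (14 of 14), endothelial (11 of 11) and astrocyte lists (6 of 6) stayed between −0.06 and 0.06 on all 8 arrays, where the members ran from −0.30 to 0.39. Plasmacytoid dendritic cell markers, 5 of 6 measured and Bst2 among them, ran from −0.09 to 0.07, and lymphocyte markers, 5 of 10 measured, from −0.07 to 0.11. Markers of the olfactory mucosa, a tissue beside the bulb, ran from −0.72 to 0.60 over 13 of 15 genes, and those of neutrophils and marrow from −0.66 to 1.01 over 8 of 10. Neutrophil markers were lowest on C-DE array 2, where the members were high, and highest on EE-C array 1, where the members stood at 0.02. On EE-DE array 1, the members' highest array, they were at 0.42, and they were lower on EE-DE array 2 as the members were, with a median difference of −0.76 against −0.47. Mucosal markers were at −0.72 and −0.46 on the C-DE arrays and highest, at 0.60, on EE-DE array 2. Red cell markers ran from −0.27 to 0.33 over 5 of 6 genes. The part of these tissues in the members' differences was not tested.

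**Figure D5:**
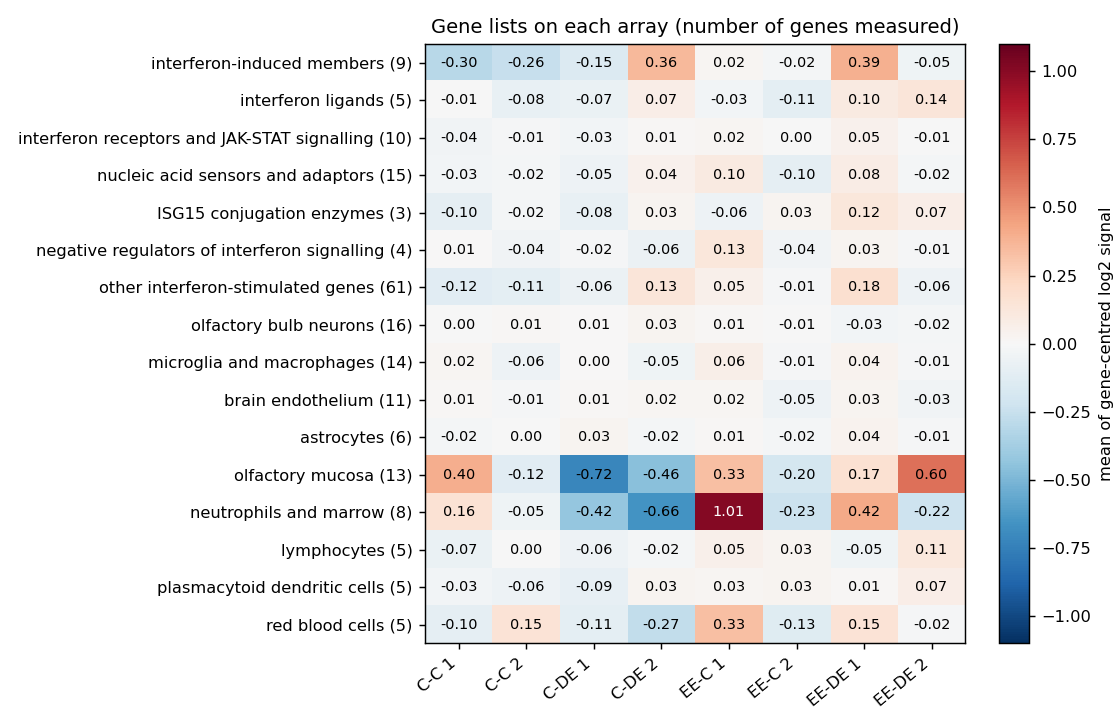
Mean of the gene-centred log2 signal of each list on the 8 arrays, with the number of genes measured in brackets. Red is above and blue below the mean over arrays. The members and the other interferon-stimulated genes are highest on C-DE array 2 (0.36 and 0.13) and EE-DE array 1 (0.39 and 0.18), and the mucosa and neutrophil lists are lowest on the C-DE arrays.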

How the data were processed

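The deposited scanner files hold spot intensity from 1-colour Agilent arrays, background-subtracted by the authors with Agilent Feature Extraction 10.7.3.1 per the file headers. The deposited series table holds log2 values that the authors centred per probe. For 99.4% of 21709 probes it was within 0.02, on all arrays, of the values computed here after centring on the median, and its column medians lay between −0.0050 and 0.013. Processed signals were put on the log2 scale and scaled to the 75th percentile of noncontrol spots of each array (644 to 716 intensity units). Spots with a GenBank or RefSeq accession (35736 of 59305 noncontrol spots) were kept where every array had them well above background without a flag for an irregular spot (23956), then averaged per probe and then per gene (16484). Fold changes compare the means of 2 arrays and stand beside the lowest and highest value of the 4 pairings of arrays. Each group is 1 pool, so no test was run, and 1.5-fold was the threshold, as in the study. The number of arrays limits the precision.

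All 9 members were named with every probe. Of the pathway lists, genes at least 1.5-fold apart in any of the 5 comparisons and 7 genes of signalling and Isg15 conjugation (Ifnar1, Ifnar2, Stat2, Irf9, Uba7, Ube2l6, Herc6) were named, then the 10 genes most like the members over the arrays. A further gene of this rule is not reported here. Further genes, those at least 1.5-fold apart between duplicate arrays, were named after their values were seen. The members and lists were chosen with earlier results of these data known. Alternatives were normexp background correction (offset 50), quantile normalization (limma 3.58.1, R 4.3.3), other scales, filters and probe summaries, the authors' series table and leaving out each array. Scripts ran in Python 3.11.15 with pandas 2.3.3 and were tested on simulated data.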

Additional observations from a re-analysis of the deposited data

How the results depend on the processing

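Over the other processing choices that kept all arrays the signs of the members' 45 fold changes (9 genes in 5 comparisons) were kept, with these exceptions. Under normexp Usp18 in EE-DE/C-DE was at 0.04 and by the brightest probe Isg15 in EE-DE/C-DE was at 0.02, both just below 0 otherwise. The signs depended more on single arrays. From the lower exposed array of each pool alone 34 of 45 were kept. Without EE-DE array 1 it was 18 of 27, and without C-DE array 2 it was 13 of 18. The number of members at least 1.5-fold higher in C-DE/C-C was 1 in the text. It was 0 by the brightest probe of a gene (0.158% of genes) and 2 with the mean of linear signals (0.194%). At 2-fold, when all 4 pairings had to pass, and from the lower exposed array of each pool alone, it was 0. In EE-DE/C-C, 3 in the text, it was 1 under normexp (0.133% of genes). There it was 0 at 2-fold, 0 over all 4 pairings and 0 from the lower exposed arrays. Under normexp the median was 0.24 in EE-C/C-C, a larger move than its duplicates' spread, and the medians of C-DE/C-C and EE-DE/C-DE were 0.26 and 0.08. When 1 array was left out, the count ran from 0 to 5 in C-DE/C-C and from 0 to 6 in EE-DE/C-C. In EE-DE/C-DE it ran from 0 to 1, the 1 without C-DE array 2, where 0.813% of genes passed. It stayed 0 in EE-DE/EE-C and EE-C/C-C. The median ran from 0.17 to 0.62 for C-DE/C-C and from −0.05 to 0.41 for EE-DE/EE-C. For EE-DE/C-C it ran from 0.28 to 0.67, for EE-C/C-C from 0.27 to 0.36 and for EE-DE/C-DE from −0.14 to 0.37, and from −0.54 to 0.04 for the difference of the exposure effects. The cause of these moves was not tested. No paired analysis was possible because the results come from no test and an array number only names 1 of 2 measurements of a pool. Irf7 is limited by signal over background, with intensities of 37.2 to 70.6 over a median background of 21 to 29. Without repeat pools the spread between mice, litters or cages is unknown.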
